A study of Mus musculus with 2 samples.

Results

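The contractile cytoskeleton and smooth muscle genes are a set of 42 genes for actins, myosins, the enzymes that switch myosin on and off, thin filament proteins, actin crosslinkers and the transcription factors that control them. Members were chosen as listed genes with a probe on the array whose RefSeq accession maps to them, and all 42 were found among 20883 genes named in this way. For each gene the brightest probe was used, and 41 of the 42 were well above background on both arrays. Of these 42 genes, 16 are isoforms or regulators typical of smooth muscle and 26 belong to the general cytoskeleton of most cells.

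Expression was measured in primary pericytes cultured from the cavernous tissue of the penis of C57BL/6 mice, in 2 groups. Exposure lasted 72 h, at a glucose labelled 5 mmol in the normal group and 30 mmol in the high group. Both groups shared a medium with serum, antibiotics and human pigment epithelium-derived factor, and an osmotic control is not used here. RNA of 3 samples was pooled for each group and hybridised to 1 Agilent 1-colour array, so there is no replicate check. No p-value can be given for any gene, and each difference below is between these 2 pools.

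Pericytes wrap small vessels and share much of their contractile machinery with smooth muscle. In both, calcium activates myosin light chain kinase, which phosphorylates the regulatory light chain so that myosin pulls on actin. Myosin phosphatase reverses this step, and RhoA with its kinases inhibits the phosphatase. Serum response factor, bound to CArG boxes and helped by myocardin or myocardin-related factors, drives most of these genes. Smooth muscle isoforms such as Acta2, Myh11 and Cnn1 mark contractile differentiation, while their relatives Actb, Myh9 and Cnn2 are made by most cells.

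Of 59305 gene spots, 56.3% on the normal glucose array and 57.6% on the other stood well above background, and no spot of a member was saturated. Levels are the log2 processed signal less the 75th percentile of the array, and a log2 ratio is high minus normal glucose. Signals are linear intensities before this scaling. They depend on the probe, so they are not compared between genes. Spots of probes printed 10 times gave the error within an array. The SD of their log2 ratios had a median of 0.29 for 41 probes with a log2 signal below 7, 0.10 for 47 probes from 7 to 9, 0.044 for 101 probes from 9 to 12 and 0.032 for 94 brighter ones. This repeat-spot SD leaves out differences between cultures and between pools.

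The contractile genes were nearly level between the 2 pools. No member differed by 2-fold, as 0.917% of all measured genes did, and 1 differed by 1.5-fold, as 2.81% did. At 1.2-fold, a log2 ratio of 0.263, there were 3 of 41 members, or 7.32%, all higher in high glucose: Myocd, Ppp1r14a and Mylk. Over all 14173 measured genes 12.3% passed 1.2-fold, 6.8% on the higher side and 5.51% on the lower. The members' share lay below this background, which is not matched for signal. Dim genes pass a fold more often, and the members were brighter. Of 41 members, 35 had a mean log2 signal of at least 9, as did 9584 of 14173 genes. Among members with a mean log2 signal of at least 9, 1 of 35 passed, where 4.38% of all such genes did. Among the 6 dimmer members 2 passed, against 28.9% of all such genes.

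Small differences were more often upward. A log2 ratio above 0 was seen in 31 of 41 members and in 46.8% of all genes. Of the 41, 34 lay above the median of all genes, -0.0073, where 50% of genes lie by definition. Among the brightest genes more lay above 0: 59.3% of 113 with a log2 signal from 17 to 18 and 93.4% of 61 above that. Acta2, Actb, Actg1, Flna, Myl6, Myl9, Tagln, Csrp1 and Tpm3 are as bright, and of these Csrp1 and Tpm3 lay below 0. The part of signal in the lean was not tested. The members' median was 0.069. It was 0.0078 with each array centred on its median and -0.038 with median pixel values, where the median of all genes also fell, to -0.068 and -0.11. With the next brightest probe read in place of the brightest it was -0.047, over the 20 members that have one measured. Of the 41 measured members, 21 lay within 2 repeat-spot SDs of 0, 18 above and 2 below, where 15.7% of all measured genes lay above that range and 18.3% below it.

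**Figure D1:**
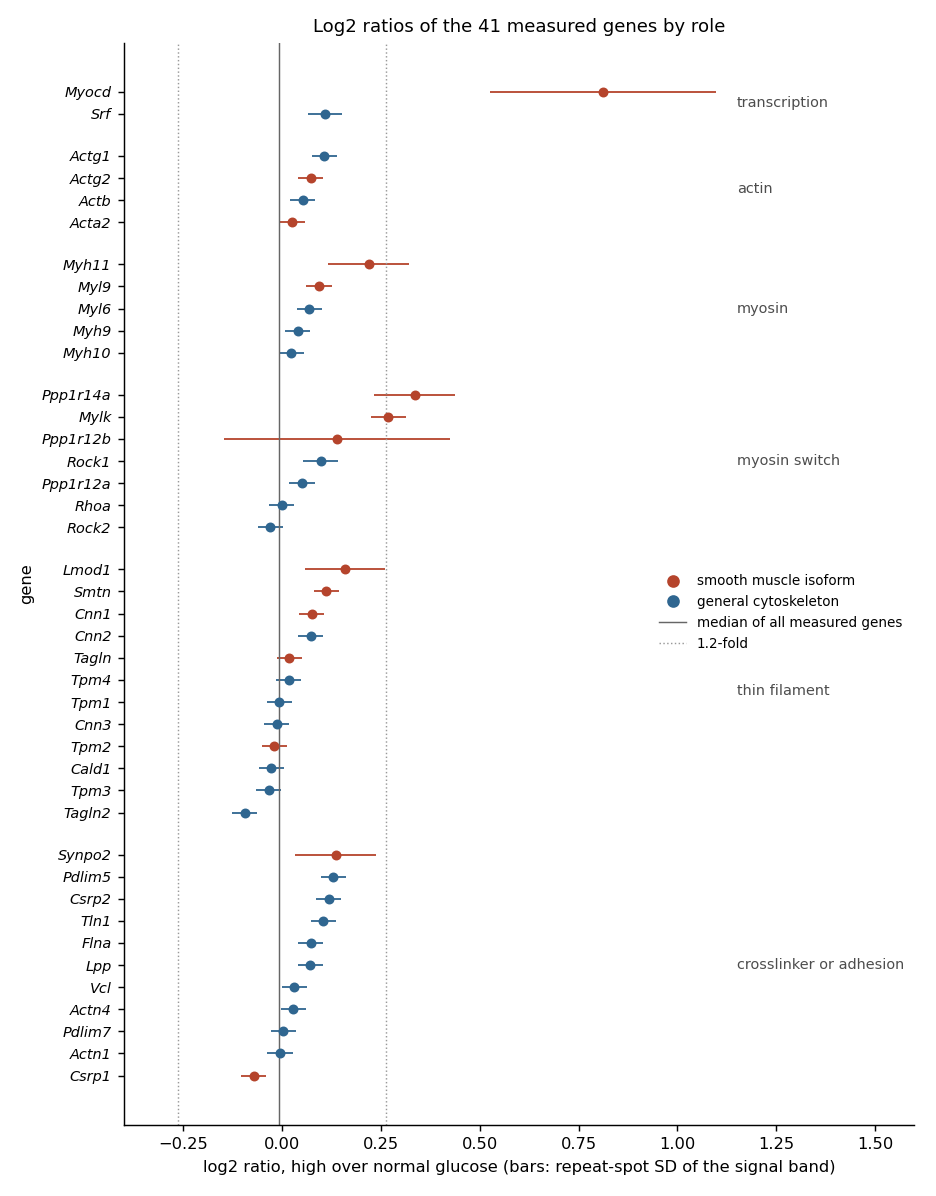
Each point shows 1 gene as the log2 ratio, high over normal glucose, of its brightest probe, ordered within its role; colour gives the class, and bars are the repeat-spot SD of the gene's signal band, not an error between cultures. Myocd, Ppp1r14a and Mylk lie beyond the dotted 1.2-fold line at 0.263, and no gene lies beyond it on the lower side.

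The smooth muscle genes had the larger ratios. Of 16, 15 were measured, 13 had a ratio above 0 and the median was 0.11, ranging from -0.072 for Csrp1 to 0.81 for Myocd. All 26 general cytoskeleton genes were measured, 18 had a ratio above 0 and the median was 0.035, ranging from -0.095 for Tagln2 to 0.13 for Pdlim5. The medians differed by 0.077. Less the median of all genes they were 0.12 and 0.042. With Cald1, Tpm1, Vcl and Csrp2 counted as smooth muscle genes, the class medians differed by 0.048. With Mylk, Myl9, Tpm2, Csrp1 and Ppp1r12b counted as general genes instead, they differed by 0.084. Under 13 alternative settings the smooth muscle median stayed above that of all genes in 13, by 0.057 to 0.14. The general median did so in 12, turning to -0.046 with the next brightest probe. Median centring and a percentile over detected probes only shift whole arrays, which cancels when the median of all genes is subtracted. Both gave 0.12 and 0.042 again, as did the deposited values and leaving out flagged spots. The 13 settings are therefore not 13 separate checks.

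The classes also differed in signal. All 6 members with a mean log2 signal below 9 were smooth muscle genes: Myocd, Ppp1r12b, Myh11, Synpo2, Ppp1r14a and Lmod1. All 6 had a ratio above 0, where 50.4% of all genes as dim had. Among members with a log2 signal of at least 12, the 8 smooth muscle genes had a median of 0.049 and the 24 general genes 0.030. When only the brighter 50% of all genes were kept, the class medians differed by 0.018 rather than 0.077. The part of signal strength in the difference between the classes was not tested beyond these values.

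**Figure D2:**
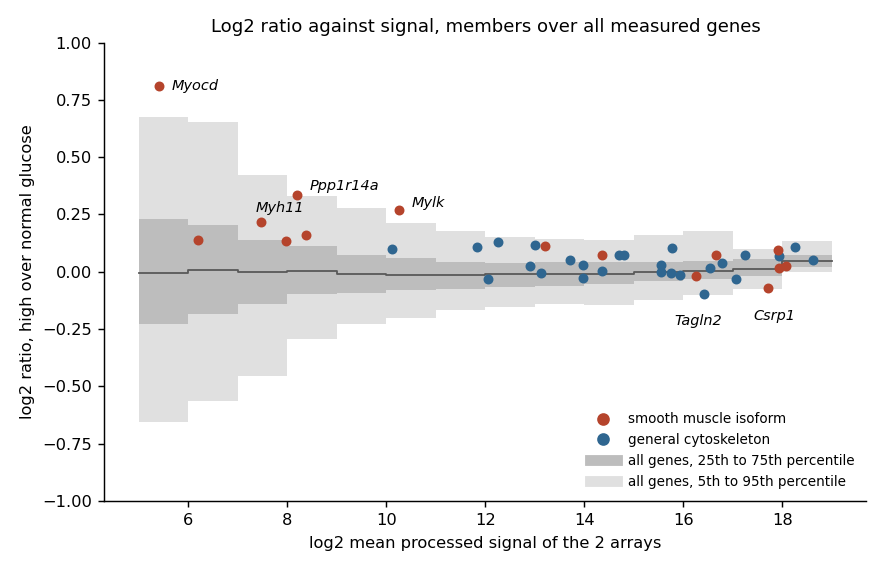
The log2 ratio of each measured member is plotted against the log2 of its mean processed signal, over bands that hold the middle 50% and the middle 90% of all measured genes in steps of 1 log2 unit. The ratios past 1.2-fold belong to Myocd and Ppp1r14a, below a log2 signal of 9, and to Mylk, above it, and the band of all genes is widest at low signal.

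Myocd encodes myocardin, the coactivator that gives serum response factor its smooth muscle programme. Its probe (NM_145136) read 33.0 in normal and 54.7 in high glucose, a log2 ratio of 0.81 or 1.76-fold. This was the largest difference among the members, at 2.8 times the repeat-spot SD of 0.29 for such dim signals. The lowest spot signal well above background was 26.9 on the normal and 24.0 on the high glucose array, so the normal value lay close to the detection limit. Under 10 alternative settings the ratio ran from 0.35 to 0.82. Settings that change only the probe or the filter repeat the main value, as Myocd has 1 probe. Of all genes with a log2 signal below 7, 6.68% were at least 1.5-fold higher.

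Srf, serum response factor itself, had 2 probes of similar signal that gave different directions. The brighter read 3592 in normal and 3663 in high glucose, a log2 ratio of 0.11. The other read 3352 and 2935, a ratio of -0.11. Each differed from 0 by more than 2 repeat-spot SDs of 0.044, in opposite directions, so no direction can be given for Srf. Why the 2 probes differ was not tested.

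Sequences that serum response factor binds were looked for in the promoters of the members, since Myocd and Srf act through them. The CArG box was searched as CC, 6 letters that are each A or T, and GG, a pattern that reads alike on both strands, in the 250 bases before each RefSeq gene start (build GRCm38.p6). Promoters of 35 members were matched, and those of Actg2, Myh11, Myocd, Tagln, Actb, Csrp2 and Rock1 were not, so 4 of the 16 smooth muscle genes were not searched. A CArG box was found in 6 of the 35, or 17.1%, and in 1.62% of 27025 genes with a promoter of this length. It stood in 5 of 23 general genes, Actg1, Cnn2, Myl6, Srf and Vcl, and in 1 of the 12 smooth muscle genes searched, Myl9. The boxes are shown in capitals with up to 25 bases on each side, on the strand of the gene. Box and flanks together span chr11:120348551-120348610 for Actg1, chr10:79988519-79988578 for Cnn2, chr10:128493025-128493084 for Myl6, chr2:156775278-156775337 for Myl9, chr17:46556210-46556269 for Srf and chr14:20929148-20929205 for Vcl. Actg1, Myl6 and Srf lie on the minus strand and the others on the plus strand.
Actg1: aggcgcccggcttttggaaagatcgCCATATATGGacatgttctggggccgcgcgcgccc
Cnn2: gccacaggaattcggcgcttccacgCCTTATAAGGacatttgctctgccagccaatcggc
Myl6: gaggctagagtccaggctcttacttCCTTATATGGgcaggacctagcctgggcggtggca
Myl9: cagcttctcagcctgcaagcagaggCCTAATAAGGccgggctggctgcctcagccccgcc
Srf: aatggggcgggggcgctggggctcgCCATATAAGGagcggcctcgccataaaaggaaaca
Vcl: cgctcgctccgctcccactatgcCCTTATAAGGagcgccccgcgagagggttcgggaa

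The Srf promoter holds another CArG box, seen in lower case near the 3′ end of its line. The box ended 40 bases before the start of Myl6, 46 before Cnn2, 72 before Srf for the one in capitals, 80 before Actg1, 151 before Myl9 and 217 before Vcl. None of the 7 boxes overlapped TATAAA on either strand, which was found in 17.1% of member promoters and 14.3% of all. With 1 inner letter allowed to be G or C, a form added after the data were seen, Acta2 had 2 further matches and Myl9 and Tpm3 also had some. This form occurred in 8.57% of members and 8.33% of all genes. Both Acta2 matches are shown because Acta2 is the classic smooth muscle actin, and both stand on the minus strand. With their flanks they span chr19:34255423-34255482 and chr19:34255374-34255432.
Acta2, upstream match: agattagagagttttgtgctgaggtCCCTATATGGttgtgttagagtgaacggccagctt
Acta2, downstream match: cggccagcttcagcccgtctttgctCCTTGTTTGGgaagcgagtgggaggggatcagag

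Read by their brightest probes, genes with a CArG box in this window all had small ratios above 0, but other probes did not all share this sign. The other probes of Srf, Vcl and Cnn2 gave -0.11, -0.069 and -0.013, and that of Myl6 gave 0.097. Those of Actg1 ran from -0.040 to 0.10, and Myl9 has 1 probe. The 6 had log2 ratios from 0.031 for Vcl to 0.11 for Srf, with a median of 0.083 and 6 of 6 above 0. The 28 measured members with a promoter but no such box had a median of 0.026, from -0.095 to 0.33, with 18 of 28 above 0. The 7 members whose promoters were not matched had a median of 0.098, with 7 of 7 above 0. The difference between these groups was not tested. None of the 6 reached 1.2-fold, and of all genes with a log2 signal of at least 9, as the 6 have, 4.38% did. A match of letters is a description of the promoter and says nothing of binding in these cells.

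All 4 actins lay close to level, with log2 ratios from 0.025 to 0.11. Acta2, alpha smooth muscle actin, was read by 10 spots of 1 probe on each array. Its signal ran from 269599 to 304029, median 278241, in normal glucose and from 259462 to 280007, median 269686, in high glucose, so the spots of the arrays overlapped. After scaling, the log2 ratio was 0.025 ± 0.029 (SD over 10 spots of the same 2 pools), and 9 of the 10 spots were above 0. Acta2 turned to -0.018 with quantile normalization, -0.036 with median centring and -0.083 with median pixels.

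Actg2, the enteric smooth muscle actin, read 21170 in normal and 21059 in high glucose, a log2 ratio of 0.072. Actb, cytoplasmic beta actin, read 407383 and 399607, a ratio of 0.052. Actg1, cytoplasmic gamma actin, had 5 measured probes, whose ratios ran from -0.040 to 0.11 with a median of 0.018. The brightest genes of the array had slightly raised ratios as a class, with a median of 0.045 over 61 genes with a signal of at least 262144, among them Acta2, Actb and Actg1. Actin genes have close paralogues and processed pseudogenes, and cross-hybridisation between them could not be checked because no probe sequences were at hand.

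**Figure D3:**
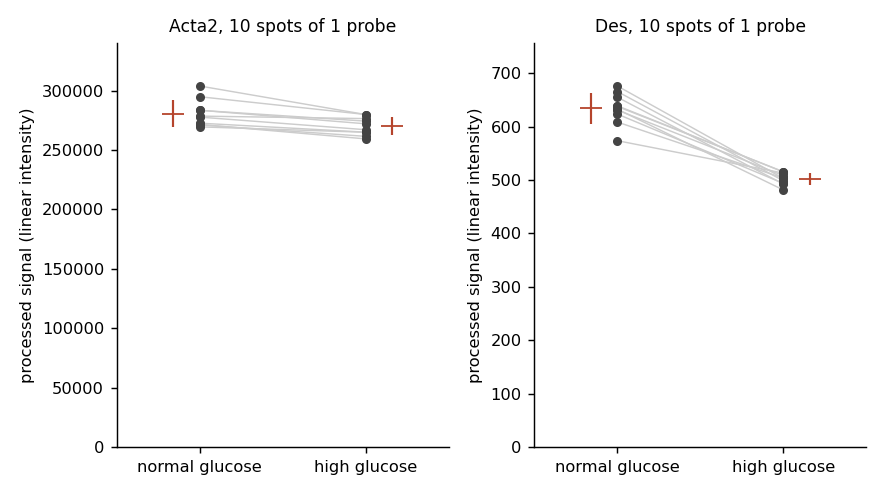
Linear processed signals of each of 10 spots of the Acta2 probe and of the Des probe are drawn for both arrays before scaling between arrays, with a line for each spot position and the mean ± SD of the spots beside them. The Acta2 spots overlap between the arrays, while all 10 Des spots in high glucose, up to 515.5, lie below the lowest in normal glucose, 573.9.

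All 5 myosin genes had a ratio above 0, with a median of 0.069. Myh11, the heavy chain of contractile smooth muscle, read 167 in normal and 184 in high glucose, a log2 ratio of 0.22 with a repeat-spot SD of 0.10. It ran from 0.030 with median pixels to 0.23 over 10 alternative settings. Myh9 and Myh10, the non-muscle heavy chains A and B, had ratios of 0.039 and 0.023. Myl9, the regulatory light chain that the kinase phosphorylates, read 247101 and 249316, a ratio of 0.093. Myl6, the essential light chain, had ratios of 0.069 and 0.097 from 2 probes.

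The enzymes that set myosin activity held 2 of the 3 genes past 1.2-fold. Mylk, myosin light chain kinase, read 1140 in normal and 1299 in high glucose. Its log2 ratio of 0.27 was 6.1 times the repeat-spot SD of 0.044 but only just past the threshold. It stayed above 0 in 10 alternative settings, from 0.14 to 0.28, and past 1.2-fold in 6 of them. With 1 probe, the deposited values, no filter on dim probes and the median over probes repeat its main value. Mylk fell below 1.2-fold with normexp (0.217), quantile normalization (0.261), median centring (0.207) and median pixels (0.137). Of all genes with a log2 signal from 9 to 12, 3.92% were at least 1.2-fold higher.

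Ppp1r14a encodes CPI-17, a smooth muscle inhibitor of myosin phosphatase. It read 269 in normal and 321 in high glucose, a log2 ratio of 0.33 or 1.26-fold, with a repeat-spot SD of 0.10. The ratio ran from 0.19 to 0.34 under 10 alternative settings and passed 1.2-fold in 8. Of the 8, the deposited values, no filter on dim probes and the median over probes repeat the main value. The ratio fell below 1.2-fold with normexp, at 0.25, and with median pixels, at 0.19. Of genes with a log2 signal from 7 to 9, 9.78% were at least 1.2-fold higher. Kinase and phosphatase inhibitor are both known to raise light chain phosphorylation, and each rests on 1 probe and 1 spot per array.

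Ratios of the phosphatase itself and of the kinases that inhibit it were small, and none passed 1.2-fold by the brightest probe. Ppp1r12a, the myosin-targeting subunit found in most cells, had ratios of 0.050 and 0.043 from 2 probes. Ppp1r12b, its muscle relative, read 71.6 and 74.6, a ratio of 0.14 with a repeat-spot SD of 0.29. Rock1 and Rock2, kinases that inhibit the phosphatase, had 2 probes each. Those of Rock1 gave 0.098 and 0.092, more than 2 repeat-spot SDs of 0.044 above 0. Those of Rock2 gave -0.030 and -0.055. Rhoa, the GTPase that activates both kinases, read 49427 and 46724, a ratio of -0.0013. Its dimmer probe read 3947 and 3045, a ratio of -0.29, so the 2 probes of Rhoa do not give 1 answer.

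Thin filament genes were the most evenly split in sign, with 6 of 12 above 0 and a median of 0.0048. Their ratios ranged from -0.095 to 0.16. Several classic smooth muscle markers had small ratios. Tagln, or SM22 alpha, read 256910 in normal and 246134 in high glucose, a log2 ratio of 0.018. Cnn1, the smooth muscle calponin, read 103789 and 103396, a ratio of 0.074 with a repeat-spot SD of 0.032. Tpm2, beta tropomyosin, had -0.020 and 0.00023 from 2 probes. Another pair of smooth muscle genes had larger positive ratios. Smtn, smoothelin, of fully contractile smooth muscle, had 0.11 and 0.19 from 2 probes. Lmod1, leiomodin, a nucleator of thin filaments, had 0.16 from signals of 324 and 343. The repeat-spot SD for signals as dim as those of Lmod1 was 0.10, so Lmod1 lay within 2 SDs of 0.

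The widely expressed relatives lay around 0. Tagln2 read 93386 in normal and 82716 in high glucose, a ratio of -0.095, and its other probe gave -0.11. It was the lowest of the members, and both probes lay at least 2 repeat-spot SDs below 0. Cnn2 and Cnn3, the calponins of non-muscle cells, had 0.072 and -0.014. Tpm1, Tpm3 and Tpm4 had -0.0069, -0.034 and 0.016, and Cald1, caldesmon, which restrains myosin on actin, had -0.027.

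Crosslinker and adhesion genes had a median of 0.071 with 9 of 11 above 0 and none past 1.2-fold. Synpo2, a smooth muscle actin bundler, had 0.13 from signals of 247 and 257. Pdlim5, an adaptor between alpha-actinin and kinases, was the highest general gene at 0.13, and its 3 probes agreed in sign, from 0.089 to 0.17. Csrp2, a LIM protein, had 0.12, Tln1, talin, which links integrins to actin, 0.10, and the crosslinker Flna 0.072. Lpp had 0.071, Vcl, vinculin, 0.031, Actn4 0.028, Pdlim7 0.0022 and Actn1 -0.0055. Csrp1, a LIM protein abundant in smooth muscle, read 225907 in normal and 203301 in high glucose, a ratio of -0.072, and was the lower of the 2 genes below 0 in this group.

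Pln, phospholamban, the inhibitor of the calcium pump of the sarcoplasmic reticulum in heart and smooth muscle, was the member without a measurement. It read 6.6 and 5.77 on the normal and high glucose arrays, not well above background on either array, so no ratio is given.

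Smooth muscle isoforms were also set against their closest general relatives, as the difference of 2 log2 ratios over 12 pairs that share some genes. The smooth muscle member had the larger ratio in 8 pairs, with a median difference of 0.019. In 10 pairs the difference was within 2 combined repeat-spot SDs. The exceptions pointed opposite ways: Tagln less Tagln2 was 0.11, and Csrp1 less Csrp2 was -0.19. Myh11 less Myh9 was 0.18 and less Myh10 0.20, with a combined SD of 0.11. Acta2 less Actb was -0.027, and Cnn1 less Cnn2 was 0.0019. Paired isoforms thus showed no common direction beyond spot error.

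Probes of the same gene did not always give the same ratio. In 20 members with several measured probes, the log2 ratios of a gene spanned a median of 0.084, and in 6 genes they spanned over 0.2. The sign was shared by all probes in 11 genes and mixed in 9. Tln1 spanned the most: its brightest probe gave 0.10 at signals of 55159 and 56091, and its other probe -0.29 at signals of 399 and 309. Pdlim7 ran from -0.18 to 0.16 over 3 probes and Tpm1 from -0.15 to 0.099 over 5, where the probes carry 4 different transcript accessions of the gene. Myl6, Pdlim5, Ppp1r12a, Rock1 and Smtn had only probes above 0, and Cald1, Cnn3, Rhoa, Rock2, Tagln2 and Tpm3 only probes below 0.

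Among the 20 genes with several measured probes, the upward lean was seen in the brightest probes and not in the others. Of these, 18 are general genes and 2, Smtn and Tpm2, smooth muscle genes, whose other probes gave 0.19 and 0.00023. In these 20 genes the brightest probes had a median of 0.040 with 12 above 0, and the 28 other probes a median of -0.036 with 11 above 0. None of the brightest and 2 of the others passed 1.2-fold, both on the lower side: those of Rhoa and Tln1. Over all 3630 genes with several measured probes, 6.69% of the brightest and 14.5% of the other probes passed. There 47.0% of the brightest and 46.3% of the others lay above 0, with medians of -0.0055 and -0.012. Myocd, Mylk, Ppp1r14a, Myh11 and Lmod1 have 1 probe each on the array, so the largest positive ratios cannot be read from another probe.

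**Figure D4:**
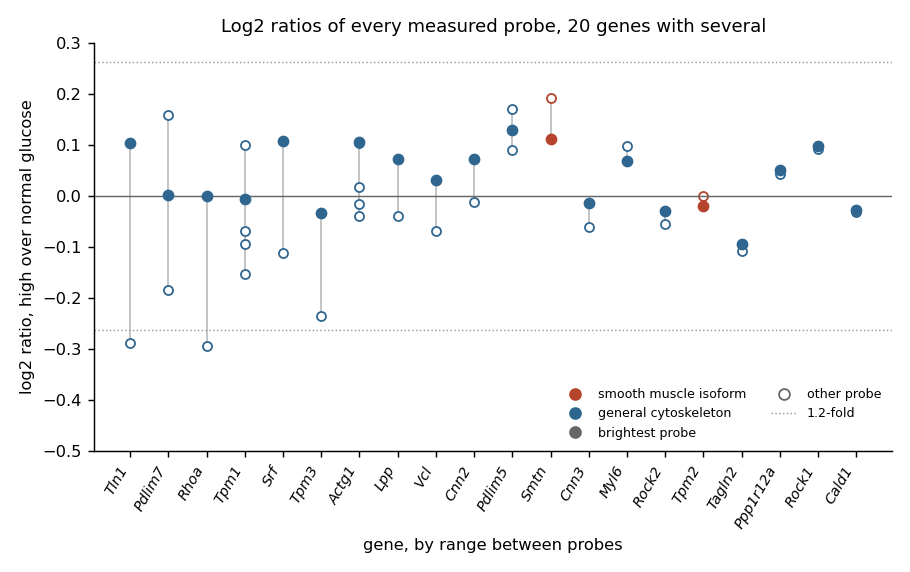
Log2 ratios of all measured probes are drawn for the 20 genes that have several, filled for the brightest probe and open for the others, with genes ordered by the span between probes. Tln1, Pdlim7 and Rhoa span the most, from 0.29 to 0.39, and in Tln1, Rhoa, Srf and Tpm3 the open point lies below the filled one.

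Related genes of actin turnover and contractility, 32 in a list beside the members, were set against the same background. All were measured, 20 lay above 0 and the median was 0.030. At 1.2-fold there were 2 of 32, or 6.25%, against 12.3% of all genes. Of the 29 with a log2 signal of at least 9, 1 passed, where 4.38% of all such genes did, and the other was among the 3 dimmer ones. Limk1, a kinase that inactivates cofilin, read 4030 in normal and 2894 in high glucose, a log2 ratio of -0.40 or 1.32-fold lower. Its relative Limk2 had the opposite sign, 0.46, from signals of 292 and 382. Further genes were singled out after their values were seen. Mrtfa, the myocardin-related coactivator that responds to free actin, had 0.22 and 0.070 from 2 probes, and Mrtfb had -0.16 and, from a dim probe, 0.44. Des, desmin, the intermediate filament of muscle and pericytes, had -0.26 ± 0.082 (SD over 10 spots of the same 2 pools), with all 10 spots below 0.

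Markers were checked against the label of the cells. Smooth muscle markers were all measured, 7 of 7, and their signals summed to 651211 in normal and 629783 in high glucose before scaling. After scaling, 7 of 7 had a log2 ratio above 0, where 46.8% of all genes had, with a median of 0.11. Acta2 and Tagln each kept this sign in 7 of 10 alternative settings. All 7 belong to the smooth muscle class described above, so their ratios repeat values already given. The 2 measured genes of that class with a ratio below 0, Csrp1 and Tpm2, are not in this marker list. Pericyte markers were measured in 8 of 9, with a summed signal of 117922 and 108307 and a median log2 ratio of -0.046, and Kcnj8 was not well above background. The 2 largest ratios of that list came from dim probes and had opposite signs, 0.58 for Rgs5 and -0.45 for Abcc9. Fibroblast markers were measured in 6 of 7, summing to 259158 and 235795, and 1 of the 6 lay above 0, with a median of -0.12. Fap, a protease of activated fibroblasts, read 3755 and 2741, a ratio of -0.37. Of 6 endothelial markers 2 were measured, Kdr and Pecam1, while Cdh5, Tek, Emcn and Tie1 were not well above background. All 4 immune markers on the array lay above 0, with a median of 0.16 and sums of 7130 and 7540, and Cd14 had 0.27. Epithelial markers were measured in 2 of 5, Krt14 at 0.41 from a dim signal and Krt18 at -0.063, while Epcam, Cdh1 and Krt8 were not well above background. What part the differences in the other marker lists had in the ratios of contractile genes was not tested. In pooled RNA, fewer cells of a type and less RNA per cell cannot be told apart.

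**Figure D5:**
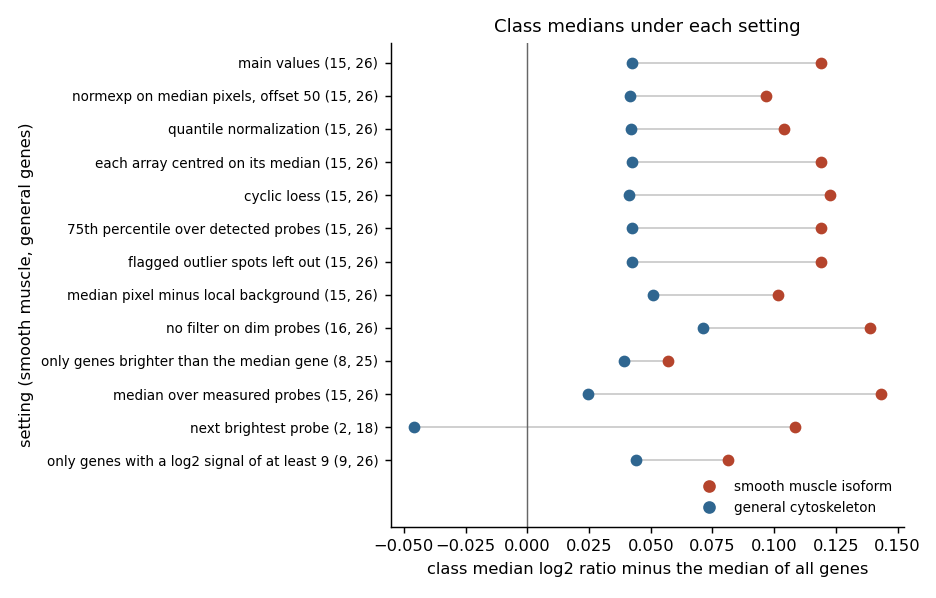
The median log2 ratio of each class less that of all genes is drawn for the main values and 12 alternative settings, with the number of smooth muscle and general genes that each could use in brackets. The smooth muscle median lies above 0 in all of these, and the general median falls to -0.046 where the next brightest probe replaces the brightest. Settings that only shift a whole array cannot change these differences, so they repeat the main values.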

How the data were processed

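Values were read from 2 Agilent 1-colour Cy3 scanner files, 1 pooled array per condition. The intensity of each spot is the processed signal of Feature Extraction 11.5.1.1, per the file headers, and the steps behind that column are not given in the sources used here. Version 9.3.2.1 is the one listed in the submitters' processing notes. A value table deposited by the authors carries this intensity on a linear scale too: for 99.7% of 55681 probes it lay within a relative tolerance of 0.001 of the mean over spots, with medians of 49.6 for normal and 48.9 for high glucose. The 0 or 1 flags also come from the scanner software, per the file headers.

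Control spots (3671) were left out, log2 signals of spots were averaged per probe, and the 75th percentile over probes (signals of 774 and 733) was subtracted. Accessions without versions were matched to the RefSeq table of GRCm38.p6, which named 27503 probes with 1 symbol; the array design names mm9, so gene coordinates are given only for RefSeq promoters. A gene counted as measured when at least 0.5 of its brightest probe's spots were well above background, and none saturated, on both arrays. Steps ran in python 3.11.15, with limma 3.58.1 for normexp and cyclic loess. Scaling and counting were tested on simulated data.

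With 1 array per condition no test was run. Members, classes and lists were chosen with earlier results of these data known. All members are named; related genes and markers were named where at least 1.2-fold different at a mean log2 signal of at least 9, or otherwise for the 2 largest ratios of a list, and others were chosen after their values were seen. Alternatives were other background corrections, normalizations, filters, probe choices and class memberships. The result of 1 marker list is not reported here.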

Additional observations from a re-analysis of the deposited data

How the results depend on the processing

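The count of 3 members past 1.2-fold became 1 with normexp on median pixels, 1 with median pixel minus local background, 1 at a log2 signal of at least 9 (a limit chosen after seeing the data), 0 when only the brighter 50% of genes were kept, 1 at 1.5-fold and 0 at 2-fold. With each array centred on its median, the median log2 ratio was 0.0078 for all members, 0.051 for smooth muscle and -0.026 for general genes. With median pixels these were -0.038, -0.012 and -0.063, where the median of all genes moved to -0.11. With the next brightest probe they were -0.047 for all members and -0.058 for general genes, and the classes differed by 0.15, with 2 smooth muscle genes left. With only genes brighter than the median the smooth muscle value was 0.049 and the difference 0.018. Of 430 values of single members under alternatives, 317 moved by less than the median repeat-spot SD of 0.046, and 14 of 41 members kept 1 sign in every setting run. The 317 include values that could hardly move, so they do not measure stability. The deposited values, no filter on dim probes and, for genes with 1 measured probe, the median over probes repeat or nearly repeat the main value. The causes were not tested. Normexp on mean pixels was not run, since the files used here hold median pixels. No paired analysis was possible because each group has 1 array. Dim signals limit Myocd, Ppp1r12b and Myh11 most.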

Other observations

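Genes of striated muscle, whose proteins build sarcomeres, gave no joint pattern. Of 23 listed, 11 were measured, 4 of them above 0, with a median log2 ratio of -0.029. Acta1, skeletal alpha actin, was the bright member, at 21473 in normal and 20310 in high glucose. The slow troponin Tnnt1 had 0.31, while Tnni1, Tnni2 and Tnnc1 had -0.47, -0.41 and -0.36, all from log2 signals below 9. The muscle factors Myod1 and Myog and the giant protein Ttn were not well above background on either array. Myh1, Myh6, Myh8 and Myl1 were well above background in high glucose only, at signals of 27.3, 33.2, 31.6 and 30.8, which is close to the lowest spot signal well above background there, 24.0. The share of all genes detected on that array only was not counted. More of its spots stood well above background, 57.6% against 56.3%.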
